A study of Mus musculus with 6 samples.

Results

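The insulin-like growth factor (IGF) axis was represented by 10 genes, listed by name. They were the ligand gene *Igf1*, the receptor genes *Igf1r* and *Igf2r*, the binding protein genes *Igfbp2* to *Igfbp7* and the adaptor gene *Irs1*. All 10 had counts in at least 1 library, among 23231 genes with counts in all, and 9 passed the low-count filter, which left 14378 genes to test. Only *Igf1* did not pass it. C2C12 cells are mouse myoblasts, an established line whose cells fuse to myotubes in low serum, and dCas9-KRAB is a nuclease-dead Cas9 joined to a repressor domain. Both groups were C2C12 cells infected with lentivirus (multiplicity of infection 100), kept in 2 µg/ml puromycin and collected after 5 days in 2% horse serum. The 3 dCas9-KRAB libraries carried no enhancer sgRNA, and the 3 dCas9-KRAB-En5 libraries carried 2 sgRNAs against Myog-En5, an enhancer upstream of the muscle regulator gene *Myog*. All cells had thus received the virus, the drug and the repressor fusion.

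IGF1 and IGF2 are secreted peptides that bind the receptor tyrosine kinase IGF1R, which passes the signal through adaptors such as IRS1 to PI3K, Akt and mTOR and to the Ras-ERK cascade. IGF2R carries IGF2 to lysosomes for degradation and does not signal as a kinase, and the IGF binding proteins hold the ligands outside the cell and set how much of them reaches a receptor. Differentiating myoblasts are known to make IGF2 and IGFBP5 themselves and to answer to IGFs with both proliferation and fusion. *Igf2* itself, *Ins1*, *Igfbp1* and the binding protein protease genes *Pappa* and *Pappa2* were not analysed here.

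Total counts ranged from 31831093 to 73988425 per library, and 3 counts, taken as the floor of detection, were worth 0.0405 to 0.0942 CPM (counts scaled to 1000000 per library, counting error only). *Myog*, the gene next to the targeted enhancer, had 43211, 68488 and 74845 counts in the dCas9-KRAB libraries and 12, 0 and 0 in the dCas9-KRAB-En5 libraries. dCas9-KRAB-En5 replicate 3 stood apart from the other libraries. It listed 13991 genes against 17084 to 19395 elsewhere, and its TPM (counts per gene length, scaled to 1000000 per library) ran low for long genes. Genes with at least 9000 exonic bases had a median log2 ratio of TPM + 0.1 of -2.25 in that library against the mean of the other 2 of its group, and genes under 2000 bases one of -0.51. Marker genes did not all follow the labelled cell type. The summed TPM of 16 differentiated muscle genes was 18193 to 21176 in dCas9-KRAB and 15.9 to 24.6 in dCas9-KRAB-En5. That of the myoblast list was 137 to 389.8 and 9.92 to 30.4, with *Pax7* at no more than 0.0302. The dCas9-KRAB-En5 libraries thus lacked both the muscle and the myoblast markers at the level of the controls. The macrophage list, 23 of 24 genes with counts, summed to 7083 to 9259 in dCas9-KRAB and 14463 to 22374 in dCas9-KRAB-En5, although *C1qa*, *C1qb* and *C1qc* did not exceed 0.982 TPM in any library. Its most abundant gene was *Lyz2*, at 1896 to 4815 and 6938 to 13210 TPM, and without it the list summed to 4444 to 5188 and 5919 to 9165. Of the 23 genes, 5 were higher and 4 lower in dCas9-KRAB-En5 without overlap, as were 7.76% and 19.7% of all genes tested. Among the higher was *Lyz2*, and among the lower *Fcgr1* at 97.3 to 161.1 against 27.9 to 53.6 TPM. edgeR called 1 of 21 tested higher and 0 lower, against 1.52% and 4.67% of all genes tested. The mesenchymal list summed to 83.8 to 251.6 and 30.1 to 62.1 in the same order. The T cell, B cell, endothelial, epithelial, hepatocyte and adipocyte lists summed to at most 1.35. In such bulk RNA, fewer cells of a type and less RNA per cell cannot be told apart. The part of these markers and of replicate 3 in the values given here was not tested.

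The 2 members that passed both cutoffs in the comparison of the groups, *Igfbp2* and *Igfbp5*, lie next to each other on chromosome 1, and the bases before their transcription starts are printed because both genes fell together. *Igfbp2* spans chr1:72824503-72852474 of GRCm38 on the plus strand with 5 merged exons, and *Igfbp5* spans chr1:72857932-72874884 on the minus strand with 4. Their 3′ ends face each other across 5457 bases. The sequences are those of RefSeq on GRCm38.p6, chr1:72824230-72824479 (plus) for *Igfbp2*, the upstream of its 2 windows, and chr1:72874885-72875115 (minus) for *Igfbp5*, 5′ to 3′ and ending before any annotated transcript. Capitals mark each CANNTG, the general E-box pattern of basic helix-loop-helix factors, which does not tell the factors of that family apart.
Igfbp2: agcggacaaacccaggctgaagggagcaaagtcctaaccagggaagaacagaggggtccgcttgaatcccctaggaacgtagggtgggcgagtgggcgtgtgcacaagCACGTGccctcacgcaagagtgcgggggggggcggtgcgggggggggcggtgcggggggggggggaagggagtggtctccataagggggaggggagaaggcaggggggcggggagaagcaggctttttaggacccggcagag
Igfbp5: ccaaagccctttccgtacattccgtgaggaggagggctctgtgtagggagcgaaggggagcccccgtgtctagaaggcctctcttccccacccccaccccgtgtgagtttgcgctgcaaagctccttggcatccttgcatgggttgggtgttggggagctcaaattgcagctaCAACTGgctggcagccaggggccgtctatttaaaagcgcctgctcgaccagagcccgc

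Each of these promoters held 1 E-box, CACGTG in *Igfbp2* and CAACTG in *Igfbp5*. CANNTG is its own reverse complement as a pattern, so that a search of a strand covers the other, and it contains CAGCTG as a special case. Of the 32851 RefSeq windows of 250 bases before a start, 66.2% held at least 1 CANNTG and 13.0% held CAGCTG, so at least 1 E-box was common. CAGCTG was absent from both printed sequences and, of the members' windows, was found only in that of *Igf1*. All 10 members had a window in that table. The *Igfbp6* window held 1 CANNTG and the *Igfbp7* window 0. The *Igf2r* window held 4, the most among the members, and 12.2% of all windows held 3 or more. These letters describe the sequence and do not locate a bound factor.

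All binding protein genes but *Igfbp4* had lower mean TPM in dCas9-KRAB-En5 cells, and 2 of them, *Igfbp5* and *Igfbp2*, passed the test. The receptor genes had fold changes of opposite sign that did not pass, and *Igf1* had at most 29 counts in a library. *Igfbp3* and *Igfbp4* differed by less than their spread. In all, 2 of the 9 tested members were called lower, where 4.67% of all genes tested were. A call required an edgeR adjusted p (quasi-likelihood test, Benjamini-Hochberg) no greater than 0.01 and a log2 fold change of 1 or more in size. No member was called higher, against 1.52% of all genes tested. At an unadjusted p under 0.05 in edgeR, 1 member was higher, *Igf2r* (16.6% of all genes tested), and 4 were lower (16.3%). DESeq2 called *Igf2r* higher (4.16% of all genes) and 3 members lower (6.13%), *Igfbp2*, *Igfbp5* and *Igfbp7*. Those shares are over 23231 genes, low-count ones included. Among the 14378 genes tested in edgeR, DESeq2 called 930 higher and 1362 lower. With the replicate number as a block, 4 members were called lower (6.79% of all genes tested) and 0 higher (3.94%), *Igfbp6* and *Igfbp7* being added. Without dCas9-KRAB-En5 replicate 3, the same 4 binding protein genes were called lower (14.0% of all genes tested) and *Igf2r* higher (11.7%). The median log2 fold change of the 9 members was -1.94, and that of all genes tested was 0.08. For 4 members the TPM of the groups did not overlap, all 4 lower in dCas9-KRAB-En5, as for 19.7% of all genes tested, and no member stood wholly above, as 7.76% of all genes tested did.

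**Figure D1:**
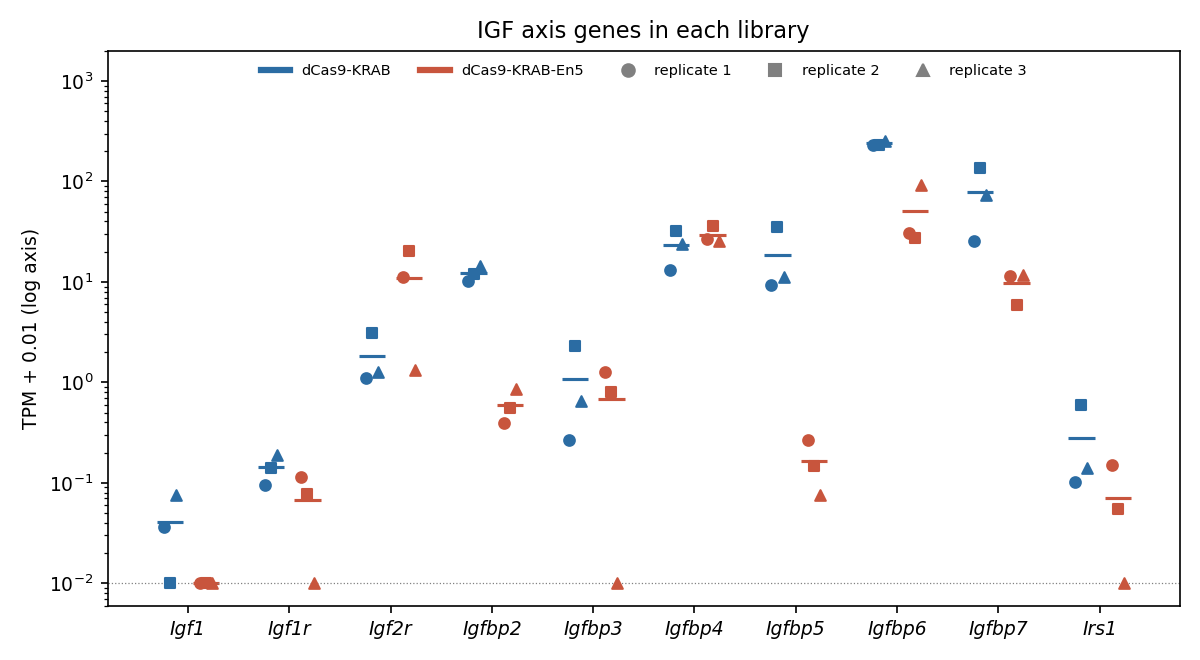
TPM of the 10 IGF axis genes in each library, drawn as TPM + 0.01 on a log axis, with dCas9-KRAB in blue and dCas9-KRAB-En5 in red, a symbol per replicate and a bar at the group mean. The dotted line marks 0 TPM, and *Igfbp2*, *Igfbp5*, *Igfbp6* and *Igfbp7* show no overlap between the groups.

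*Igfbp5*, the binding protein gene best known from differentiating muscle cells, had 1525, 7828 and 3020 counts in the dCas9-KRAB libraries and 33, 14 and 9 in those of dCas9-KRAB-En5, given here and for each gene in the order of replicates 1 to 3. Its TPM was 9.36, 34.8 and 11.2 in the former and 0.259, 0.137 and 0.0655 in the latter. Every dCas9-KRAB-En5 library thus lay far under the lowest control. The mean TPM was 18.5 ± 14.2 (SD, n = 3) in dCas9-KRAB and 0.154 ± 0.098 (SD, n = 3) in dCas9-KRAB-En5, which is 119.9-fold lower. On the log2 scale the fitted fold change was -7.08 (standard error, SE, 0.70, edgeR adjusted p = 8.3e-05). This was the largest change among the members in that test. It was the single member called in each of the 6 fits that left out a library.

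*Igfbp2*, which encodes a binding protein with an integrin-binding motif, had 509, 820 and 1191 counts in dCas9-KRAB and 15, 17 and 36 in dCas9-KRAB-En5. The TPM was 10.2, 11.9 and 14.4 against 0.383, 0.543 and 0.852. Its 3 control libraries were close together, and the dCas9-KRAB-En5 libraries were all below 1 TPM. The mean was 12.1 ± 2.14 (SD, n = 3) against 0.593 ± 0.238 (SD, n = 3), 20.5-fold lower. Its fitted log2 fold change was -4.24 (SE 0.71, edgeR adjusted p = 0.0028). The call was lost when either of 2 controls was left out, with an edgeR adjusted p of 0.0255 without dCas9-KRAB replicate 1 and 0.0106 without dCas9-KRAB replicate 2, at log2 fold changes of -4.36 and -4.34.

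The region around this pair was looked at after their values were known. Within 500000 bases on either side, 3 other genes were tested, and 1 was called lower. That was *Xrcc5*, which encodes the Ku80 subunit used in DNA end joining, at 8.27, 3.50 and 2.64 TPM in dCas9-KRAB and 0.611, 0.648 and 0.154 in dCas9-KRAB-En5. Its log2 fold change was -3.70 (SE 0.68, edgeR adjusted p = 0.0048). Leaving out a library at a time moved that adjusted p between 0.0023 and 0.0275, and the call was lost without dCas9-KRAB replicate 1 or 2 and without dCas9-KRAB-En5 replicate 2. *Smarcal1*, at a log2 fold change of 0.60, and *Rpl37a*, at 0.33, did not pass. *Myog* and its enhancer are on the same chromosome, with the start of *Myog* 61.4 Mb beyond the end of *Igfbp5*.

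*Igfbp6*, whose product prefers IGF2 over IGF1, was the most abundant member in every control library. It had 7030, 9674 and 12580 counts in dCas9-KRAB and 731, 519 and 2346 in dCas9-KRAB-En5. The TPM was 233, 232.4 and 252.6 in dCas9-KRAB, a range of 1.09-fold, and 31.0, 27.5 and 92.2 in dCas9-KRAB-En5. The groups did not overlap, but dCas9-KRAB-En5 replicate 3 stood well above the other 2 libraries of its group. The mean was 4.76-fold lower in dCas9-KRAB-En5 (239.3 ± 11.5 against 50.2 ± 36.4, SD, n = 3 each). The log2 fold change of -1.94 did not pass the cutoffs (SE 0.73, edgeR adjusted p = 0.088). With the replicate block it was -2.67 (SE 0.60, edgeR adjusted p = 0.0058) and was called. Without dCas9-KRAB-En5 replicate 3 it was -3.65 and was also called.

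*Igfbp7*, which encodes a relative of the other binding proteins with weak affinity for IGFs, had 838, 6115 and 3943 counts in dCas9-KRAB and 294, 121 and 324 in dCas9-KRAB-En5. The TPM was 25.5, 135.1 and 72.8 in dCas9-KRAB and 11.5, 5.90 and 11.7 in dCas9-KRAB-En5. The controls differed among themselves by 5.29-fold, and all 3 lay above the dCas9-KRAB-En5 libraries. The mean was 8.03-fold lower in dCas9-KRAB-En5. The log2 fold change was -2.86 (SE 0.69, edgeR adjusted p = 0.0168), which did not pass. It was -2.81 with the replicate block (edgeR adjusted p = 0.0058) and -2.87 in DESeq2 (adjusted p = 0.00038), and both called it. The exons of *Igfbp7* overlap those of *Polr2b* on the other strand, and whether reads were counted by strand is not given in the sources used here.

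*Igfbp4*, which encodes an inhibitor of IGF action that proteases cleave, was the only binding protein gene with a higher mean TPM in dCas9-KRAB-En5. It had 1584, 5330 and 4683 counts in dCas9-KRAB and 2485, 2697 and 2588 in dCas9-KRAB-En5. The TPM was 13.2, 32.2 and 23.7 against 26.6, 36.0 and 25.6. The groups overlapped, and the dCas9-KRAB-En5 libraries were the tighter group. The log2 fold change was 0.30 with an SE of 0.47 (edgeR adjusted p = 0.69), and it was -0.17 without dCas9-KRAB-En5 replicate 3.

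*Igfbp3*, which encodes the main IGF carrier of serum, was low throughout. Its counts were 22, 268 and 90 in dCas9-KRAB and 83, 42 and 0 in dCas9-KRAB-En5. Its TPM was 0.259, 2.29 and 0.642 in dCas9-KRAB and 1.25, 0.791 and 0 in dCas9-KRAB-En5. The groups overlapped, with the lowest value in dCas9-KRAB-En5 replicate 3 and the highest in dCas9-KRAB replicate 2. The log2 fold change was -1.05 with an SE of 1.14 (edgeR adjusted p = 0.56). Leaving out a library at a time gave between -0.01, without dCas9-KRAB replicate 2, and -1.91, without dCas9-KRAB-En5 replicate 1, and none of these fits called it.

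**Figure D2:**
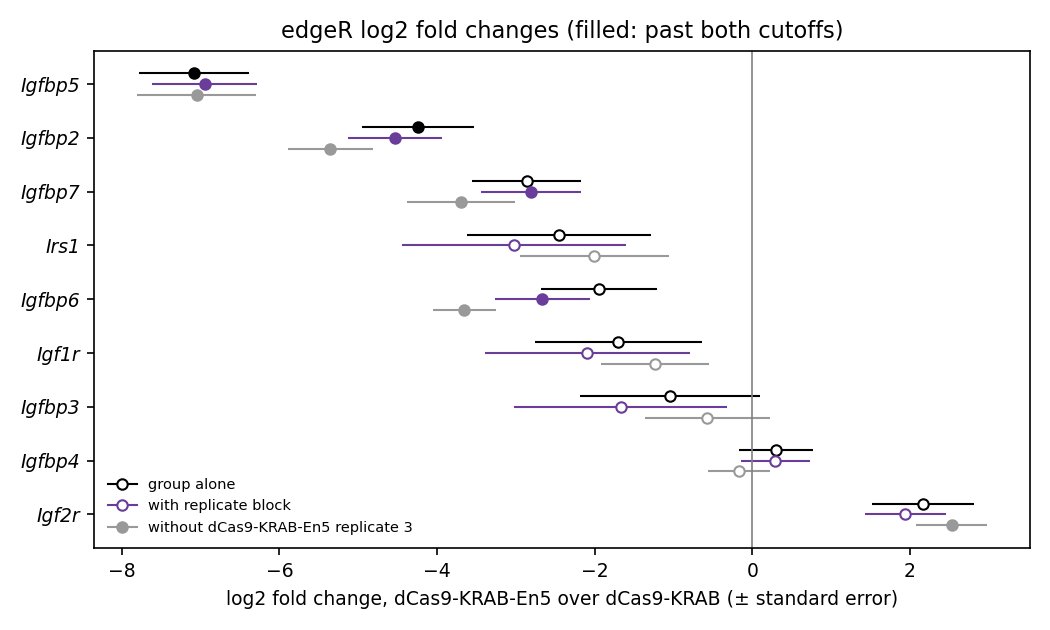
edgeR log2 fold change of the 9 tested members, dCas9-KRAB-En5 over dCas9-KRAB, with bars of 1 standard error, for the comparison of the groups alone (black), with the replicate block (purple) and without dCas9-KRAB-En5 replicate 3 (grey). Filled points passed both cutoffs, as *Igfbp5* and *Igfbp2* did in each of these fits, while *Igfbp6* and *Igfbp7* were filled in the other two and *Igf2r* without dCas9-KRAB-En5 replicate 3 alone.

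TPM is scaled by length, so levels of different genes were added within a library. In dCas9-KRAB-En5 replicate 3 this scaling left long genes low, as given above, and the binding protein genes differ in length. *Igfbp4* has 4416 exonic bases and *Igfbp5* 6006, against 1112 for *Igfbp6*. Without that library the log2 ratio of the mean sums was -2.39, against -2.04 with it. The difference of the mean *Igfbp4* shares was 38.1 percentage points without it and 29.9 with it. The 6 binding protein genes summed to 291.5, 448.8 and 375.4 TPM in dCas9-KRAB and to 71.0, 70.9 and 130.4 TPM in dCas9-KRAB-En5. The lowest control was above the highest dCas9-KRAB-En5 library, and the mean was 371.9 ± 78.7 (SD, n = 3) against 90.8 ± 34.3 (SD, n = 3), 4.10-fold lower (p = 0.1 in a two-sided exact permutation test, the lowest p possible with 3 against 3). Of that sum, *Igfbp4* contributed 4.54%, 7.18% and 6.31% in dCas9-KRAB and 37.4%, 50.8% and 19.6% in dCas9-KRAB-En5, without overlap (exact permutation test, two-sided, p = 0.1). In dCas9-KRAB-En5 replicate 2 it was ahead of *Igfbp6*. The share of *Igfbp6* was 79.9%, 51.8% and 67.3% in dCas9-KRAB and 43.7%, 38.8% and 70.7% in dCas9-KRAB-En5, and these ranges overlapped (exact permutation test, two-sided, p = 0.3). The overlap came from dCas9-KRAB-En5 replicate 3. *Igfbp6* is the shortest member, with 1112 exonic bases. *Igfbp7*, with 1209, had shares of 16.2%, 8.32% and 8.98% in dCas9-KRAB-En5. The part of length in the sums and shares was not tested. The difference of the mean *Igfbp6* shares was -15.3 percentage points, and -25.1 without dCas9-KRAB-En5 replicate 3. It was -8.47 without dCas9-KRAB replicate 1 and -9.13 without dCas9-KRAB-En5 replicate 2. *Igfbp5* went from a share of 4.65% ± 2.69 to 0.203% ± 0.158 and *Igfbp2* from 3.32% ± 0.61 to 0.653% ± 0.113 (SD, n = 3 each), both without overlap (exact permutation tests, two-sided, p = 0.1 each). The *Igfbp5* difference of -4.45 points was -2.90 without dCas9-KRAB replicate 2. For *Igfbp7* and *Igfbp3* the shares of the groups overlapped. The *Igfbp7* difference of -8.27 points was -2.92 without dCas9-KRAB replicate 2 and -13.6 without dCas9-KRAB replicate 1.

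**Figure D3:**
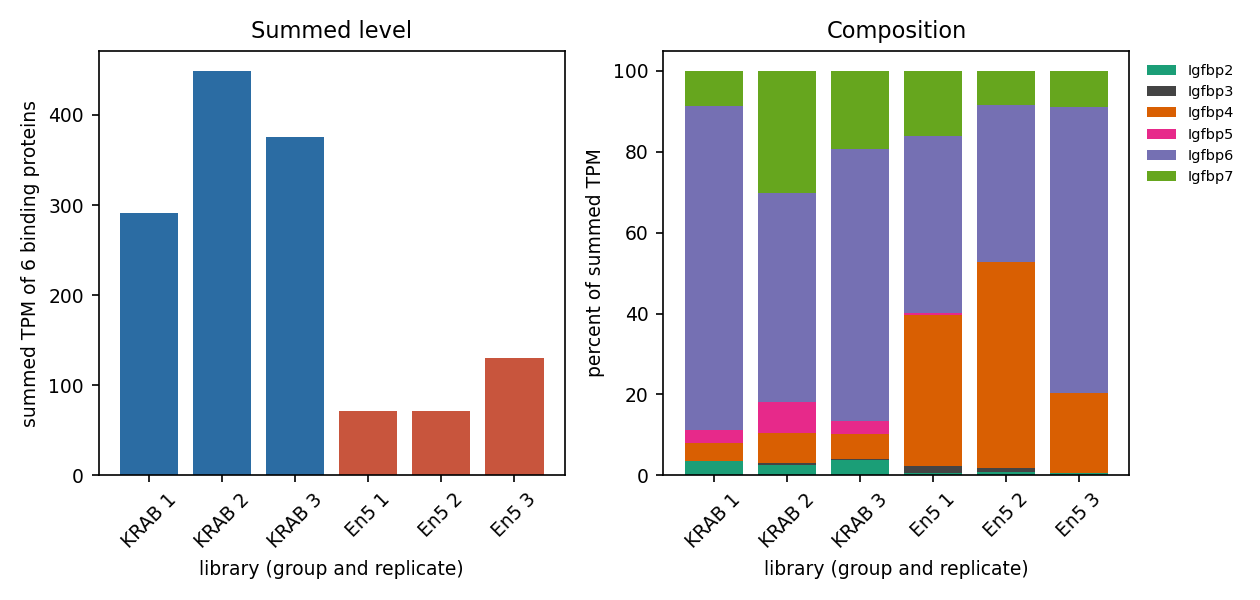
Summed TPM of the 6 binding protein genes in each library (left) and the percent of that sum held by each gene (right), with KRAB and En5 standing for dCas9-KRAB and dCas9-KRAB-En5. The sum was 291.5 to 448.8 TPM in dCas9-KRAB and 70.9 to 130.4 TPM in dCas9-KRAB-En5, where *Igfbp4* held 19.6% to 50.8% of it.

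The ligand gene *Igf1* was barely detected. It had 7, 0 and 29 counts in dCas9-KRAB, or 0.173, 0 and 0.392 CPM, and 0 counts in all 3 dCas9-KRAB-En5 libraries, where the floor was 0.0743 to 0.0942 CPM. A control library was thus also at 0, the gene did not pass the low-count filter, and no fold is given. Against the summed TPM of the binding proteins, *Igf1* amounted to 8.9e-05, 0 and 0.00017 in dCas9-KRAB and to 0 in dCas9-KRAB-En5, so in each library the binding protein transcripts were far in excess of this ligand's (exact permutation test of the group difference, two-sided, p = 0.4).

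Neither receptor gene passed the test. *Igf1r*, the gene of the signalling receptor, had 39, 83 and 135 counts in dCas9-KRAB and 37, 19 and 0 in dCas9-KRAB-En5. Its TPM was 0.0856, 0.132 and 0.179 in dCas9-KRAB and 0.104, 0.0667 and 0 in dCas9-KRAB-En5. The groups overlapped and the log2 fold change of -1.70 did not pass (SE 1.06, edgeR adjusted p = 0.29).

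*Igf2r*, the gene of the clearance receptor that also sorts lysosomal enzymes, had 274, 1068 and 523 counts in dCas9-KRAB and 2184, 3234 and 283 in dCas9-KRAB-En5. Its TPM was 1.08, 3.07 and 1.25 in dCas9-KRAB and 11.1, 20.5 and 1.33 in dCas9-KRAB-En5. Replicates 1 and 2 of dCas9-KRAB-En5 lay above every control, and replicate 3 lay among the controls. Fitted over all 6 libraries, the log2 fold change was 2.17 (SE 0.64, edgeR adjusted p = 0.038), which passed the fold cutoff and not that of the adjusted p. DESeq2 gave 2.07 (adjusted p = 0.0087) and called it, and edgeR gave 2.53 (adjusted p = 0.0018) without dCas9-KRAB-En5 replicate 3. With its 9308 exonic bases, *Igf2r* is among the long genes that ran low in that library, as are *Igf1r* with 16791 and *Irs1* with 9144. *Igf1*, with 9904, had 0 counts in dCas9-KRAB-En5 replicates 1 to 3 alike. The macrophage list was at 22374, 14463 and 16924 TPM in dCas9-KRAB-En5 replicates 1 to 3. That order rested on *Lyz2*, without which replicate 3 was the lowest of its group at 5919 TPM. The part of these markers in the *Igf2r* values was not tested. Within a library, the ratio of *Igf1r* to *Igf2r* TPM was 0.0789, 0.0431 and 0.143 in dCas9-KRAB and 0.00939, 0.00326 and 0 in dCas9-KRAB-En5. These ranges did not overlap (exact permutation test, two-sided, p = 0.1), and the value of 0 came from the library without *Igf1r* counts. That library was dCas9-KRAB-En5 replicate 3, where long genes ran low, and the part of length in this ratio was not tested.

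*Irs1*, which encodes the adaptor that IGF1R and the insulin receptor phosphorylate, had 23, 199 and 53 counts in dCas9-KRAB and 27, 7 and 0 in dCas9-KRAB-En5. The TPM was 0.0927, 0.582 and 0.129 against 0.139, 0.0451 and 0. The highest control stood apart from the other 2, and the groups overlapped. Its log2 fold change of -2.45 had an SE of 1.17 and did not pass (edgeR adjusted p = 0.17). It was -1.39 without dCas9-KRAB replicate 2 and -3.92 without dCas9-KRAB-En5 replicate 1, and was not called in either fit. The exons of *Irs1* overlap *Gm9747* on the other strand.

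Ranked by mean TPM in dCas9-KRAB, *Igfbp6* was followed without overlap of the libraries' ranges by *Igfbp7*, and *Igfbp7*, *Igfbp4*, *Igfbp5* and *Igfbp2* came next with each overlapping its neighbour. *Igfbp2* lay clear above *Igf2r*. *Igf2r*, *Igfbp3*, *Irs1* and *Igf1r* then overlapped in turn, and *Igf1* was last. In dCas9-KRAB-En5 the order was *Igfbp6*, *Igfbp4*, *Igf2r*, *Igfbp7*, *Igfbp3*, *Igfbp2*, *Igfbp5*, *Irs1*, *Igf1r* and *Igf1*. There *Igfbp4* was clear of *Igf2r*, *Igfbp7* of *Igfbp3* and *Igfbp2* of *Igfbp5*, and the other neighbours overlapped. The members did not vary alike among the libraries of a group. dCas9-KRAB replicate 1 was the lowest of its group for 8 of 10 members, and dCas9-KRAB-En5 replicate 3 was the lowest of its group for 6 of the 9 members with counts there but the highest for *Igfbp2*, *Igfbp6* and *Igfbp7*.

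Of 92 other genes of the pathway, listed by function, 85 had counts, and 7 were not analysed here. Of the 85, 79 were tested. Among these, 5 were called lower (6.33%, against 4.67% of all genes tested) and 2 higher (2.53%, against 1.52%). With the replicate block, 9 were lower (11.4%, against 6.79%) and 10 higher (12.7%, against 3.94%). DESeq2 called 12 of 85 lower (14.1%, against 6.13%) and 13 higher (15.3%, against 4.16%). The DESeq2 shares of all genes are over 23231 genes, low-count ones included, while 79 of the 85 passed the filter. Among the 14378 genes tested in edgeR, DESeq2 called 1362 lower and 930 higher. Without dCas9-KRAB-En5 replicate 3, 13 of 80 were lower (16.2%, against 14.0%) and 23 higher (28.8%, against 11.7%). At an unadjusted p under 0.05 in edgeR, 16 of 79 were lower (20.3%, against 16.3%) and 25 higher (31.6%, against 16.6%). The lists below are read against these shares of all genes. The median log2 fold change was 0.35 over the 79 genes and 0.08 over all genes tested. None of the 7 genes called in edgeR's test of the groups encodes a kinase of the PI3K-Akt-mTOR or Ras-ERK lists, but other fits called such genes. *Gsk3b* and *Braf* were called higher with the replicate block and with DESeq2, and *Pik3cb* with DESeq2. Without dCas9-KRAB-En5 replicate 3, kinase genes were called in both directions, *Akt1* being lower. In the PI3K-Akt-mTOR list 1 of 31 tested genes was called, higher, at a median log2 fold change of 0.72. That list had 14 genes higher and 2 lower at an unadjusted p under 0.05, and 5 were called higher with the replicate block and 7 with DESeq2. In the Ras-ERK list edgeR called 0 of 16, at a median of 0.44, with 3 higher and 3 lower at an unadjusted p under 0.05. The replicate block called 2 higher and 1 lower there, and DESeq2 2 higher and 2 lower. Of the 7 binding protein proteases and their inhibitors edgeR called 0, with 3 lower and 2 higher at an unadjusted p under 0.05. For them the block called 2 lower and 1 higher, and DESeq2 3 lower and 1 higher. Of the 11 adaptors and receptor-proximal regulators 1 was called, and of the IGF mRNA-binding proteins the single gene tested had a log2 fold change of 1.45 and was not called.

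Upstream of the axis, *Ghr*, the growth hormone receptor gene, had 3.31, 3.69 and 2.89 TPM in dCas9-KRAB and 0.224, 0.163 and 0.0145 in dCas9-KRAB-En5. It fell by 5.02 on the log2 scale (SE 0.69, edgeR adjusted p = 0.00077). *Ins2*, an insulin gene that neighbours *Igf2*, had 749, 1262 and 1356 counts in dCas9-KRAB and 0 in every dCas9-KRAB-En5 library. Set against 3 counts per library, its mean CPM was at least 219.7-fold lower (edgeR adjusted p = 4.6e-05). *Insr*, the insulin receptor gene, was high in the libraries where *Igf2r* was, with 0.217, 0.927 and 0.237 TPM in dCas9-KRAB and 2.94, 4.41 and 0.289 in dCas9-KRAB-En5. Its log2 fold change of 2.06 did not pass (SE 0.73, edgeR adjusted p = 0.073), and it was called higher without dCas9-KRAB-En5 replicate 3.

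Downstream, the genes called lower were *Foxo6*, *Trim63* and *Gadd45a* of the 10 FoxO factors and muscle targets, and edgeR called 0 higher. At an unadjusted p under 0.05, 3 were higher and 4 lower. The 3 higher genes, named after their values were seen, were *Foxo3* (log2 fold change 2.71), *Foxo1* (2.22) and *Sesn1* (1.84), and DESeq2 called *Foxo3* and *Foxo1*. *Trim63*, which encodes the muscle ubiquitin ligase MuRF1, had 9.56, 5.20 and 6.29 TPM in dCas9-KRAB and 0.083, 0 and 0 in dCas9-KRAB-En5 (log2 fold change -8.13, edgeR adjusted p = 0.000385). *Foxo6*, a FoxO transcription factor gene, had 9.27, 16.6 and 11.8 TPM against 0.217, 0.0677 and 0.334 (log2 fold change -5.74, edgeR adjusted p = 0.00097). *Gadd45a*, a stress response gene, had 85.0, 48.1 and 35.0 TPM against 9.07, 6.99 and 7.38 (log2 fold change -2.89, edgeR adjusted p = 0.0055). For all 3 the groups did not overlap. The calls of *Trim63* and *Foxo6*, and that of *Ghr*, were lost without dCas9-KRAB replicate 1 (edgeR adjusted p = 0.0106, 0.0158 and 0.0115), and that of *Gadd45a* was lost in all leave-out fits (edgeR adjusted p up to 0.0366) except the fit without dCas9-KRAB-En5 replicate 3.

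The genes called higher were *Socs3* and *Pik3r5*. *Socs3*, a cytokine-induced inhibitor that can also bind insulin and IGF receptors, had 15.1, 65.5 and 58.8 TPM in dCas9-KRAB and 1109, 532.2 and 185.0 in dCas9-KRAB-En5 (log2 fold change 3.41, edgeR adjusted p = 0.0066). *Pik3r5*, a regulatory subunit gene of PI3K gamma, had 1.45, 7.30 and 4.77 TPM against 47.6, 76.7 and 18.8 (log2 fold change 3.12, edgeR adjusted p = 0.0050). Both calls were lost when any 1 dCas9-KRAB library was left out (edgeR adjusted p up to 0.0416 for *Socs3* and 0.0281 for *Pik3r5*). The macrophage marker sums given above were also higher in dCas9-KRAB-En5, with list genes placed in both directions, and their part in these values was not tested.

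**Figure D4:**
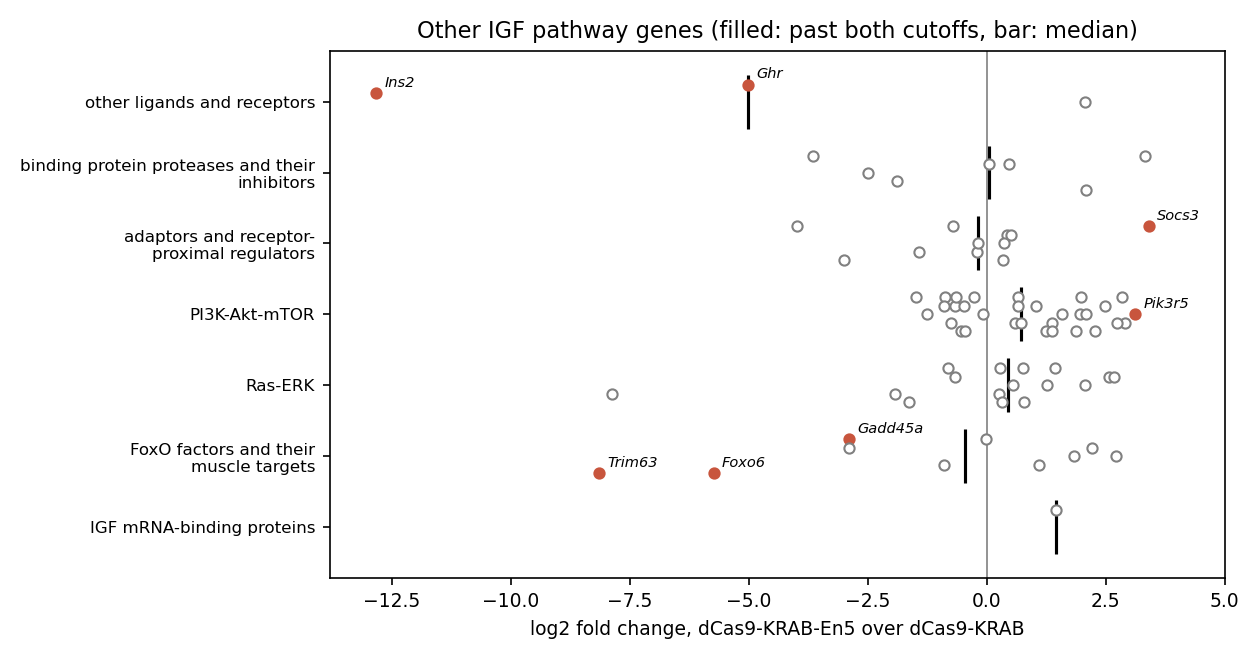
edgeR log2 fold change of 79 other IGF pathway genes in 7 functional lists, dCas9-KRAB-En5 over dCas9-KRAB, a point per gene and a black bar at each list's median. Filled and named points passed both cutoffs, 5 lower and 2 higher.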

How the data were processed

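RNA-seq of 6 C2C12 libraries was analysed, grouped by the sample labels into 3 of dCas9-KRAB and 3 of dCas9-KRAB-En5. The authors aligned the reads to GRCm38 with HISAT2 2.2.1, as their processing notes state, ran featureCounts and deposited the raw counts per gene. The authors also deposited TPM, which are counts per gene length scaled to 1000000 per library. Annotation release and strand setting are not given in the sources used here. The ratio of counts to TPM gave the exon length of GENCODE vM21 within 1% for all 10 members and for 98.62% of genes with counts in every library. Genes not listed in a library were taken as 0, and 23155 of 23231 identifiers matched a symbol.

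Counts were compared with edgeR 4.0.16 in R 4.3.3 (TMM, filterByExpr with a minimum count of 10 and a minimum total of 15, quasi-likelihood test, Benjamini-Hochberg adjustment over the 14378 genes tested). Genes were called at an adjusted p no greater than 0.01 with a log2 fold change of 1 or more in size. The fitting code was run on simulated counts with a fixed spread and libraries that differed only in depth. That run cannot show how it does on libraries as uneven as these. Fold changes are fitted values, and folds of mean TPM are given beside them. The standard errors given for edgeR were derived from its test. Each is the size of the log2 fold change divided by the square root of the F statistic. Values derived from TPM were compared by exact permutation tests over libraries.

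The labels number the replicates 1 to 3 in both groups. Same-numbered libraries deviated together from their group means (correlations across genes 0.26, 0.21 and 0.29, other pairings -0.34 to -0.05), so the numbers were also fitted as a block. Whether cultures were separate or handled together is not stated, so the p-values measure the spread between these libraries.

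All members, *Myog*, *Insr* and up to 5 called genes per pathway list with the smallest adjusted p were named by rule. Outside that rule, *Gsk3b*, *Braf*, *Pik3cb*, *Akt1*, *Foxo3*, *Foxo1* and *Sesn1* were named after their values were seen. So were single marker genes and the genes around *Igfbp2* and *Igfbp5*. The members and lists were chosen with earlier results of these data known. Alternatives were DESeq2 1.42.0, other normalizations and filters, limma 3.58.1 on TPM (as log2 after adding 1 or 0.1), other cutoffs and leaving out each library. Promoter windows came from RefSeq, and protein sequences were not used here.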

Additional observations from a re-analysis of the deposited data

How the results depend on the processing

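In edgeR's test of the groups, 2 members were called lower and 0 higher, and 5 and 2 of the other pathway genes. Of all genes tested, 4.67% were called lower and 1.52% higher. Members called lower numbered 4 with no low-count filter (5.14% of all genes) and 4 with the replicate block (6.79%). With at least 10 counts in every library, where *Igfbp5* was dropped, 1 member was called lower (2.91%). Members called higher numbered 1 with DESeq2 (4.16% of all genes), 1 with no low-count filter (4.32%) and 1 at an adjusted p of at most 0.05 (7.43%). This was *Igf2r* each time. Pathway genes called lower, with the share of them and of all genes, numbered 12 with DESeq2 (14.1% and 6.13%), 12 with no low-count filter (14.1% and 5.14%), 1 with at least 10 counts in every library (1.54% and 2.91%), 9 with the replicate block (11.4% and 6.79%) and 12 at the looser adjusted p (15.2% and 9.60%). Those called higher numbered 13 with DESeq2 (15.3% and 4.16%), 19 with no filter (22.4% and 4.32%), 10 with the replicate block (12.7% and 3.94%), 16 at the looser adjusted p (20.3% and 7.43%) and 1 with either limma fit (1.27%, and 0.223% or 0.459%). The shares of all genes with DESeq2 and with no filter were taken over 23231 genes, those of low count included. The causes were not tested.

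Leaving out 1 library gave 1 to 4 members called lower, 0 to 1 higher, 1 to 13 pathway genes lower and 0 to 23 higher. Of all genes tested in these fits, 1.43% to 14.0% were called lower and 0.0397% to 11.7% higher. The upper ends came without dCas9-KRAB-En5 replicate 3, where 3921 genes were called in all against 890. *Igfbp4* reversed to -0.17 in that fit and ranged up to 0.51 in the others. Without dCas9-KRAB replicate 1 or without dCas9-KRAB replicate 2, 1 member was called lower, *Igfbp5* (1.43% and 2.02% of all genes tested). Leaving out any 1 dCas9-KRAB library left 0 pathway genes called higher, where 0.0397% to 0.152% of all genes tested were. *Igfbp2* was called in each of the 9 alternatives that kept all libraries, and *Igfbp5* in the 8 that kept it. With the replicate block, 1543 genes were called in all, and *Igfbp6* and *Igfbp7* were added. It changed no other call among the members. Scaling by total counts alone gave 516 lower and 70 higher calls over all genes, against 671 and 219, and changed no direction of a tested member. The sums, shares and ratios of TPM were recomputed without each library and from TMM-scaled counts per kilobase, which cannot move a share or ratio within a library, and kept their direction in these. *Igf1*, *Igf1r*, *Igfbp3* and *Irs1* each had at least 1 library at 0 counts.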
